A study of Mus musculus with 217 samples.

Results

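The response of lung endothelial cells (ECs) to lipopolysaccharide (LPS) at 6 hr was compared with that of heart ECs, as the difference between the lung change (6 hr against 0 hr) and the heart change (6 hr against 0 hr) of each gene. Of the 98 libraries of the series, 22 belong to these 4 groups, and 18 of them were compared after leaving out libraries with under 3% of their reads on genes. They are 4 lung libraries at 0 hr, 4 lung libraries at 6 hr, 5 heart libraries at 0 hr and 5 heart libraries at 6 hr. Of 16224 genes tested, 219 had a called difference of responses (edgeR, adjusted p under 0.05), which is 1.35% of the genes. In 137 of them the lung change lay above the heart change, and in 82 it lay below. The genes below included Bmp4, Hilpda, Cebpd, Socs1, Pdgfa and Vcam1, which were lower, level or little higher in lung at 6 hr and higher in heart. The genes above included Fth1, Upf2, mt-Co1 and the muscle genes Myl2, Myl3 and Ttn, and for all of them but Ttn the deepest of the 4 lung libraries at 6 hr had the lowest level of the 4.

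LPS is a component of the outer membrane of Gram-negative bacteria. It is bound by CD14 and by the complex of TLR4 with MD-2 and starts signalling through NF-kappaB and through interferon regulatory factors. ECs that meet LPS, or the cytokines it raises, put adhesion molecules such as VCAM-1 and E-selectin on their surface and release chemokines that call leukocytes. The lung holds a dense net of capillaries around the alveoli and a large pool of leukocytes within its vessels, while the capillaries of the heart run between cardiomyocytes and pass on fatty acids to them.

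All mice carried Cdh5CreERT2/+; Rpl22HA/+, so that after tamoxifen the ribosomes of cells that express VE-cadherin bear a hemagglutinin tag (RiboTagEC mice). Ribosomes were pulled from perfused lung or heart with an antibody to the tag, and the RNA bound to them was sequenced. The 6 hr groups received 10 mg per kg LPS into the peritoneum, and the 0 hr groups are controls injected with PBS. Each library is a pull-down from whole tissue, so RNA of other cells can come along, and fewer tagged cells cannot be told apart from less RNA per cell. Nothing in the labels says that libraries of a group came from separate mice, so that p-values measure the spread between these libraries.

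Counts on genes ran from 9792631 to 26666744 in the 10 heart libraries and from 3666859 to 43417945 in lung at 0 hr. The lung libraries at 6 hr had 2678119, 2745503, 40128330 and 284457 counts on genes in replicates 1 to 4, so that all but replicate 3 were shallower. Their share of reads on genes was 6.93%, 8.12%, 33.9% and 3.40%, and the 20 highest genes took 49.8%, 76.6%, 17.0% and 95.5% of the counts. A count of 3, taken as the floor, stands for a log2 CPM of 6.01 in lung 6 hr replicate 4, and 12610 of the 16224 genes had no count there. Levels are given as log2 CPM (counts scaled by TMM to a common library size, CPM), on which a gene without counts is listed at -3.43 in every library.

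The library labelled heart 6 hr replicate 5 went against its label. Of 1171 genes in which heart 6 hr replicates 1 to 4 all lay more than 1 log2 unit above every heart library at 0 hr, the library labelled heart 6 hr replicate 5 lay at or inside the 0 hr side in 886 (75.7%) and beside the 6 hr libraries in 3. Of 1124 genes that lay below in the same way, it was on the 0 hr side in 960 (85.4%). Lcn2, an acute phase protein that binds bacterial siderophores, had 55.7 CPM in this library, 2490 to 5670 CPM in the other 4 heart libraries at 6 hr and 8.99 to 21.6 CPM at 0 hr. The library labelled lung 6 hr replicate 4 had 17.6 CPM of Lcn2 from 5 counts, where the other 3 lung libraries at 6 hr had 497 to 1560 CPM and the lung libraries at 0 hr 6.08 to 52.4 CPM. Of 80 genes in which lung 6 hr replicates 1 to 3 all lay more than 1 log2 unit above every lung library at 0 hr and over the floor of replicate 4, it was on the 0 hr side in 61, with no count in 40. Of 60 genes that lay below in the same way, it was below every 0 hr library in 59, with no count in 28. This library had no count in 12610 of the 16224 genes. Low values put it on the 0 hr side of the first set and on the 6 hr side of the second. Neither set can therefore tell whether it ran with its label. Both libraries share a file name pattern without an animal number with brain 6 hr replicate 6. That brain library held 1.38 CPM of Saa3, 6.68 CPM of Cxcl10 and 47.0 CPM of Icam1, where the other 4 brain libraries at 6 hr with over 3% of reads on genes held 1530 to 1630, 50.0 to 802 and 292 to 1130 CPM. Its Lcn2, at 368 CPM, lay between those 4 (5800 to 9020 CPM) and the brain libraries kept at 0 hr (7.05 to 45.1 CPM). Whether these 3 libraries came from 1 mouse, and whether it was injected with LPS, was not tested, and if it was not, every value over 18 libraries mixes injected and control tissue at 6 hr. Both lung 6 hr replicate 4 and heart 6 hr replicate 5 were kept under their labels, and the counts and the differences of the main genes are given with all 18 libraries and with the 16 that remain without them. These libraries were chosen on the same measurements, so that higher counts without them are a description.

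With 18 libraries 1175 genes changed in lung (722 or 4.45% rose and 453 or 2.79% fell, 7.24% of the genes) and 483 changed in heart (433 or 2.67% rose and 50 or 0.308% fell, 2.98%). With 16 libraries and 16819 genes tested, 1441 changed in lung (920 or 5.47% rose and 521 or 3.10% fell, 8.57%) and 2231 in heart (1283 or 7.63% rose and 948 or 5.64% fell, 13.3%). The called differences then numbered 603 (3.59%), 373 above and 230 below, and 213 of the 219 genes were among them in the same direction. The median difference over all genes was -0.41 with 18 libraries and -0.27 with 16. Leaving out 1 library moved it between -0.22 and -1.20, the last without lung 6 hr replicate 3, and it was -0.19 with RLE scaling, 0.11 with DESeq2 and -1.82 with ComBat before limma. All 219 called genes lay beyond the median of -0.41 on their own side. This follows from the size of the calls, the smallest of which was -2.55 (Plxna1), and is no check on the shift of the median. Before LPS the vascular beds already differed, with 5768 genes (35.6%) at different levels in lung and heart at 0 hr.

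**Figure D1:**
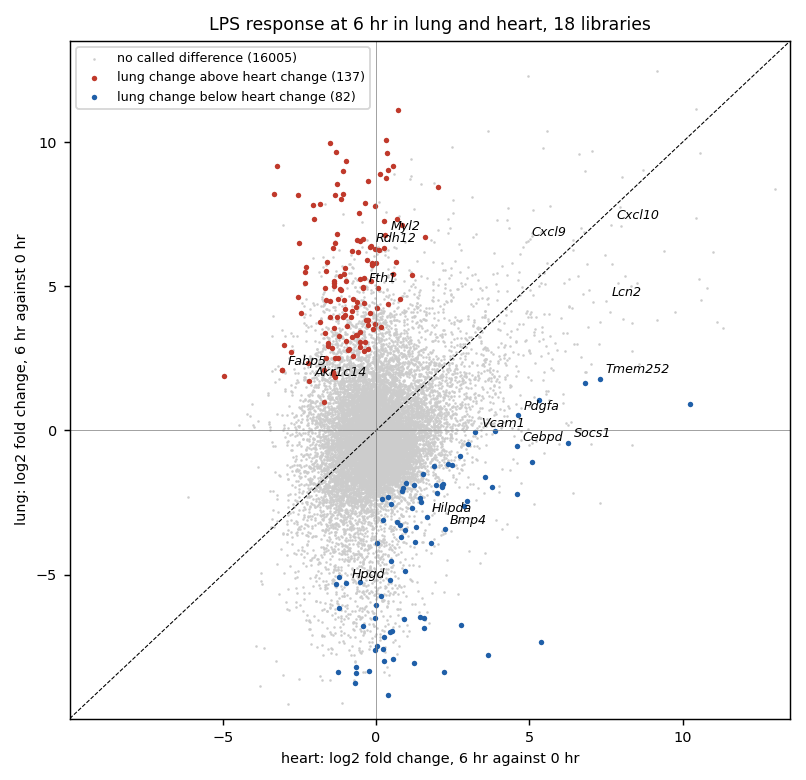
Log2 fold change at 6 hr against 0 hr in heart (horizontal axis) and in lung (vertical axis) for each of the 16224 genes, with 18 libraries. The 137 genes with a lung change above the heart change (red) lie mostly at a heart change near 0 and a lung change above 0, and the 82 genes with a lung change below it (blue) lie to the right of and under the dashed line of equal change.

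The 82 genes in which the lung change lay below the heart change came about in different ways. In 51 of them the gene fell in lung and the heart change did not pass the test, in 21 it rose in heart and the lung change did not pass, in 9 neither change passed alone, and 1 gene, Bmp4, fell in lung and rose in heart. With 16 libraries 106 of the 230 genes rose in heart without a called lung change, 76 fell in lung alone and 19 rose in both, with the smaller rise in lung. Of the 82 genes 51 had no count in at least 2 of the 4 lung libraries at 6 hr, as had 9226 of all 16224 genes and 42 of the 137 genes above.

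Bmp4 (chr14:46383520-46390669, minus strand) encodes a ligand of the bone morphogenetic protein (BMP) family that acts on the vessel wall. In lung its log2 CPM was 8.25, 8.00, 8.28 and 6.64 at 0 hr and 3.57, 5.92, 4.11 and 4.43 at 6 hr. In heart it was 5.08, 5.12, 5.83, 5.25 and 5.09 at 0 hr and 8.58, 8.07, 8.29, 6.92 and 5.53 at 6 hr. Every lung library at 6 hr lay below every one at 0 hr, whereas 4 heart libraries at 6 hr lay above every one at 0 hr and the library labelled replicate 5 lay within their range. The value of lung replicate 4 at 6 hr came from 1 count, under the floor of 6.01 of that library. This floor lies below every lung level at 0 hr. The lung change was -3.42, the heart change 2.24 and the difference -5.66 ± 0.85 on the log2 scale (SE; edgeR adjusted p = 0.00438). Without the pair of doubted libraries it was -5.88 (edgeR adjusted p = 0.00229), and the difference passed in every alternative fit that was run. Lung began 2.68 log2 units above heart and at 6 hr lay 2.98 units below it, so that the order of the tissues turned over. Id3, which encodes an inhibitor of DNA binding that BMP signals induce, fell in lung by 2.30 on the log2 scale, with a heart change of 0.40 and a difference of -2.71 ± 0.63 (edgeR adjusted p = 0.0371), or -2.62 with 16 libraries (edgeR adjusted p = 0.0216).

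Hilpda (chr6:29272488-29275446, plus strand) encodes a lipid droplet protein that responds to hypoxia. In lung its log2 CPM was 8.17, 8.96, 9.43 and 8.63 at 0 hr and 3.94, 6.17 and 7.36 in replicates 1 to 3 at 6 hr, with no count in replicate 4. In heart it was 3.83, 4.49, 3.57, 3.81 and 3.78 at 0 hr and 6.55, 6.24, 6.23, 5.96 and 3.37 at 6 hr. The tissues moved towards each other, from a gap of 4.85 log2 units at 0 hr to 0.20 at 6 hr. The lung change was -3.0 and the difference -4.65 ± 0.91 (edgeR adjusted p = 0.0197), or -4.80 with 16 libraries (edgeR adjusted p = 0.00572), while the heart change of 1.65 passed with 16 libraries alone (2.29, edgeR adjusted p = 0.0105). Among the 219 called genes, Bmp4 and Hilpda were those whose difference passed in all 13 other fits with another tool, scaling, filter, covariate or choice of libraries.

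Cebpd, Socs1 and Pdgfa rose in heart and had no called change in lung. Cebpd (chr16:15887286-15891031, plus strand) encodes C/EBP-delta, a transcription factor of the acute phase response. Its log2 CPM in lung was 7.15, 7.58, 8.64 and 8.09 at 0 hr and 7.74, 6.28, 8.98 and 6.75 at 6 hr, and these ranges overlap. In heart it was 4.71, 4.01, 5.38, 5.01 and 4.42 at 0 hr and 10.72, 10.32, 9.55 and 9.65 in replicates 1 to 4 at 6 hr, against 5.62 in the library labelled replicate 5. The heart gene rose by 4.61 log2 units and the difference was -5.15 ± 0.94 (edgeR adjusted p = 0.0130), or -5.34 with 16 libraries (edgeR adjusted p = 0.00345). Lung ECs at rest had held Cebpd 3.33 log2 units above heart ECs, and at 6 hr heart was the higher by 1.82 units. With the mouse, as read from file names, as a block the difference no longer passed (-4.54, edgeR adjusted p = 0.0712).

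Socs1 (chr16:10782240-10785536, minus strand) encodes an inhibitor of the JAK kinases that ends interferon and cytokine signals. In lung its log2 CPM was 3.45, 3.25, 3.11 and 1.11 at 0 hr and 1.82 and 4.17 in replicates 1 and 3 at 6 hr, with no count in replicates 2 and 4. The floors of replicates 2 and 4 are 1.77 and 6.01. The latter lies above every lung level at 0 hr, so that replicate 4 cannot show a fall. Heart levels were 0.35, 1.03, 0.42, 0.59 and 1.37 at 0 hr and 8.54, 7.81, 7.62, 6.18 and 1.54 at 6 hr. The deep lung replicate 3 lay less than 1 unit above the highest lung library at 0 hr, and 4 heart libraries lay several units above theirs. The difference was -6.69 ± 1.30 (edgeR adjusted p = 0.0194) with 18 libraries and -6.92 (edgeR adjusted p = 0.00480) with 16, and it passed with the mouse block (-7.77, edgeR adjusted p = 0.0102).

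Pdgfa (chr5:138976014-138997370, minus strand) encodes the A chain of platelet-derived growth factor, a mitogen for mesenchymal cells. In lung its log2 CPM was 6.05, 5.56, 5.38 and 4.95 at 0 hr and 5.58, 6.47 and 7.57 in replicates 1 to 3 at 6 hr, with no count in replicate 4. The floor of replicate 4, at 6.01, lies above all but the highest lung level at 0 hr. Heart levels were 2.84, 3.59, 3.01, 3.22 and 3.55 at 0 hr and 8.79, 8.27, 8.75, 8.52 and 2.90 at 6 hr. The heart change was 4.63 and the difference -4.10 ± 1.00 (edgeR adjusted p = 0.0434), or -4.09 with 16 libraries (edgeR adjusted p = 0.00441). It passed in 3 of the 18 fits without 1 library and not with the mouse block (-4.41, edgeR adjusted p = 0.0654). The lung change of 0.53 did not pass, nor did that of 1.26 with 16 libraries.

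Vcam1 (chr3:116109949-116129688, minus strand) encodes the adhesion molecule that holds monocytes and lymphocytes at the vessel wall, and it was the 1 member of 13 leukocyte adhesion genes with a called difference. The beds were level before LPS, with a log2 CPM of 6.58, 6.79, 7.06 and 6.51 in lung and 6.72, 6.66, 7.10, 7.02 and 6.85 in heart. At 6 hr heart reached 11.34, 10.99, 10.70 and 10.00 in replicates 1 to 4 and 7.92 in the library labelled replicate 5, all above 0 hr. Lung held 6.69, 6.90 and 8.34 in replicates 1 to 3 and no count in replicate 4, where the floor of 6.01 lies under the 0 hr level. The difference was -3.31 ± 0.84 (edgeR adjusted p = 0.0485) with 18 libraries and -3.22 (edgeR adjusted p = 0.0113) with 16. It passed in 3 of the 18 fits without 1 library, in 6 of 13 other fits and not with the mouse block (-3.39, edgeR adjusted p = 0.130).

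None of the other 12 adhesion genes had a called difference with 18 libraries, where 1.35% of all genes had one. Icam1, which encodes the ligand of leukocyte integrins, differed by -2.82 ± 0.97 (edgeR adjusted p = 0.109) and passed with 16 libraries (-2.53, edgeR adjusted p = 0.0367), where it rose by 2.18 in lung and by 4.71 in heart. Selp, which encodes P-selectin, rose in both, by 4.74 in lung and 6.76 in heart. Sele, which encodes E-selectin, rose by 5.10 and 5.38, and the difference of -0.28 had a 95% interval of -3.70 to 3.15. Its lung counts were 0, 54, 257 and 0 in replicates 1 to 4 at 6 hr and 0, 9, 0 and 19 at 0 hr. The lung rise thus came from replicates 2 and 3, and the ranges overlap. With 16 libraries the differences of Selp and Sele were -1.98 and -0.13, and neither passed.

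**Figure D2:**
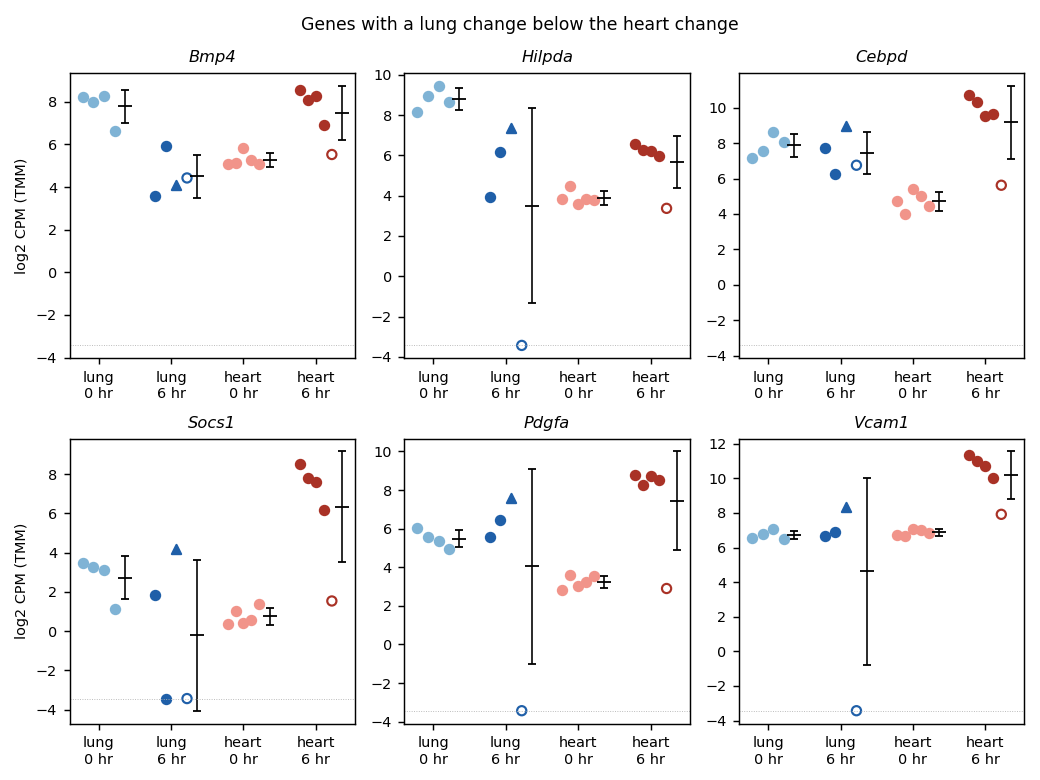
Level in log2 CPM (vertical axes, each panel on its own scale) of Bmp4, Hilpda, Cebpd, Socs1, Pdgfa and Vcam1 in each library of the 4 groups, with the mean and SD beside the points. Open circles are the libraries labelled lung 6 hr replicate 4 and heart 6 hr replicate 5, the triangle is lung 6 hr replicate 3, and the dotted line at -3.43 marks a gene without counts. Filled heart points at 6 hr lie above those at 0 hr in all 6 panels.

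Further genes of this direction are known from other processes. Tmem252, whose protein is little described, rose in heart by 7.31, from 3.41, 1.81, 2.44, 1.03 and 1.14 at 0 hr to 9.49, 9.86, 9.94, 9.47 and 1.59 at 6 hr, and differed by -5.52 ± 1.28 (edgeR adjusted p = 0.0365), or -5.46 with 16 libraries (edgeR adjusted p = 0.00345). Its lung change of 1.79 passed with 16 libraries alone (2.64, edgeR adjusted p = 0.0163). C1ra, which encodes a protease of the first complement component, had a heart change of 3.87, a lung change of -0.02 and a difference of -3.89 ± 0.90 (edgeR adjusted p = 0.0365). It was the 1 called gene of 17 complement genes, where 1.35% of all genes were called. Serpinb9, which encodes an inhibitor of granzyme B, differed by -4.13 ± 0.90 (edgeR adjusted p = 0.0304) between a lung change of -1.97 and a heart change of 2.16, neither of which passed alone. Shroom3, which encodes a regulator of cell shape, differed by -4.16 ± 0.96, and Grrp1, whose function is little known, by -4.06 ± 1.00 (edgeR adjusted p = 0.0365 and 0.0452). With 16 libraries the differences were -3.83 for C1ra, -4.15 for Serpinb9, -4.39 for Shroom3 and -4.05 for Grrp1, and all 4 passed (edgeR adjusted p from 0.00811 to 0.0276).

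Hpgd, Ly96 and Ndufa5 fell in lung, with heart changes that did not pass. Hpgd (chr8:56294585-56321043, plus strand) encodes the enzyme that breaks down prostaglandins, for which the lung is the main site. In lung its log2 CPM was 8.14, 7.37, 8.86 and 12.02 at 0 hr and 2.90, 2.79 and 4.55 in replicates 1 to 3 at 6 hr, with no count in replicate 4, so that all lung libraries at 6 hr lay below those at 0 hr. The difference was -4.32 ± 1.08 (edgeR adjusted p = 0.0452), and it did not pass with 16 libraries (-3.95, edgeR adjusted p = 0.0504). Ly96 encodes MD-2, the part of the TLR4 complex that binds LPS, and was at 4.70, 3.81, 4.27 and 3.99 in lung at 0 hr, while at 6 hr replicate 3 had 1.37 and the other lung libraries no count. The floors of lung replicates 1, 2 and 4 are 0.56, 1.77 and 6.01 log2 CPM, so that the first 2 lie under the 0 hr level and the last does not. In heart Ly96 stayed between 2.70 and 3.79 at either time, and the difference was -3.94 ± 0.97 (edgeR adjusted p = 0.0448), or -3.92 with 16 libraries (edgeR adjusted p = 0.0339). Ndufa5, which encodes a subunit of respiratory complex I, differed by -3.85 ± 0.93 (edgeR adjusted p = 0.0434), or -3.82 with 16 libraries (edgeR adjusted p = 0.0259). Hs3st1, named after its values had been seen, encodes an enzyme of heparan sulfate and differed by -5.02 ± 0.80 (edgeR adjusted p = 0.00728) through a lung fall of 4.52 log2 units, and it passed in all 18 fits without 1 library.

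The start regions of the called genes were searched for binding motifs of the factors that LPS sets in motion. Windows of 250 bases before to 50 after the start came from RefSeq (GRCm38.p6), which held 85 of the 137 genes above and 51 of the 82 below, and both strands were read. The NF-kappaB motif GGGAANNNCC was in 6.59% of all genes with a promoter, in 8 genes above (9.41%) and in 3 below (5.88%). The interferon-stimulated element GAAANNGAAA was in 3.99% of all genes, 6 genes above (7.06%) and 3 below (5.88%), and the STAT motif TTCNNNGAA in 9.55%, 13 genes above (15.3%) and 3 below (5.88%). A gene counted once if any of its promoters matched. The 85 genes above had 131 promoters, the 51 below 64 and all 27025 genes 32851, so that genes above had more windows each on average. By promoter the NF-kappaB motif was in 9, 3 and 1899 of these. The interferon element was in 6, 4 and 1131 and the STAT motif in 13, 4 and 2726. A match is a description of letters. The windows of 4 genes below are shown, 1 for each kind of match and a further one for the interferon element, with the motif in capitals, 5′ to 3′ on the strand of the gene. They lie at chr16:10785594-10785623 (minus strand, Socs1), chr13:33004485-33004514 (plus strand, Serpinb9), chr6:29272348-29272377 (plus strand, Hilpda) and chr6:124512643-124512670 (plus strand, C1ra).
Socs1, interferon-stimulated element: gccggaaagaGAAACCGAAAgcgggggtgg
Serpinb9, interferon-stimulated element on the other strand: ctcctgctacTTTCACTTTCtctaaggacc
Hilpda, NF-kappaB motif on the other strand: aactcctgcgGGGCCTTCCCacactgcccg
C1ra, STAT motif: aaatgcttcaTTCCCTGAAacattcctc
The Socs1 match overlaps a further match of the same element. Of the 3 genes below with the interferon element, Socs1 and Tox2 rose in heart, by 6.26 and 1.97, and Serpinb9 had a heart change of 2.16 (edgeR adjusted p = 0.0638).

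The 137 genes in which the lung change lay above the heart change were of another kind. In 122 of them the gene rose in lung and the heart change did not pass, in 5 it fell in heart alone, and in 10 neither change passed alone. Of the 219 called genes 180 were protein coding and 24 were processed pseudogenes, whose reads can be shared with the parent gene. The count rested on which libraries were used, as given below. With lung 6 hr replicate 3, by far the deepest, as the lone lung library at 6 hr, 121 of the 137 genes above and all 82 genes below kept their sign. Heart 6 hr replicate 5 was also left out of that fit. Replicate 3 was itself among the libraries behind the 219 calls, so that the kept signs are a description and no independent check. A kept sign does not say how much of the size was kept.

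Myl2 and Myl3, which encode the ventricular light chains of cardiac myosin, and Ttn, which encodes titin, rose in lung. Myl2 (chr5:122100951-122113472, plus strand) was at a log2 CPM of 0.80, 1.49, -0.31 and -2.24 in lung at 0 hr and at 8.12, 7.90, 0.24 and 6.42 in replicates 1 to 4 at 6 hr. Replicates 1 and 2 lay far above 0 hr, and replicate 3 lay within its range. Replicate 4, at 6.42, lay near its floor of 6.01, which is itself above the lung levels at 0 hr. The differences were 6.48 ± 1.27 for Myl2, 6.14 ± 1.11 for Myl3 and 5.81 ± 1.33 for Ttn (edgeR adjusted p = 0.0202, 0.0130 and 0.0365). They were 6.47, 6.29 and 5.97 with 16 libraries (edgeR adjusted p = 0.0215, 0.0113 and 0.0250), and 5.28, 4.57 and 3.26 with the mouse block, where none passed (edgeR adjusted p = 0.0924, 0.103 and 0.227). For Myl2 the sign turned over, to -0.81, with replicate 3 as the lone lung library at 6 hr. The summed level of 12 cardiomyocyte markers, which include these 3 genes, was 1180, 2260, 143 and 472 CPM in the lung libraries at 6 hr, 77.5 to 138 CPM in lung at 0 hr and 2970 to 9030 CPM in heart. At most 2 of the 12 markers had no count in a lung library at 6 hr, among them Ttn in replicate 4, and none in heart. The part of cardiomyocyte RNA in these differences was not tested.

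Fth1, Upf2 and mt-Co1 were also lowest in replicate 3 among the lung libraries at 6 hr. Fth1 (chr19:9980598-9985098, plus strand) encodes the heavy chain of the iron store ferritin and was at a log2 CPM of 5.15, 4.91, 4.25 and 6.40 in lung at 0 hr and 11.98, 9.52, 6.60 and 8.33 at 6 hr. In heart it lay between 6.05 and 8.06 at either time, and the difference was 5.40 ± 1.10 (edgeR adjusted p = 0.0234). Upf2, which encodes a factor of nonsense-mediated decay, was at 5.39, 7.88, 7.17 and 3.71 at 0 hr and 11.27, 13.64, 7.07 and 10.07 at 6 hr in lung, so that replicate 3 lay within the 0 hr range. The difference was 5.34 ± 1.16 (edgeR adjusted p = 0.0301). The mitochondrial gene mt-Co1 reached 13.20, 10.83, 6.60 and 10.26 in lung at 6 hr, with replicate 3 again lowest, and differed by 5.83 ± 1.23 (edgeR adjusted p = 0.0275). Ankhd1, which encodes an ankyrin repeat protein, differed by 4.25 ± 0.93 (edgeR adjusted p = 0.0301), and Igf2, which encodes an insulin-like growth factor, by 5.20 ± 1.19 (edgeR adjusted p = 0.0365). These 5 genes rose in lung with 18 libraries, Igf2 did not with 16 (2.77, edgeR adjusted p = 0.106), and none had a called heart change. With 16 libraries the differences were 5.94 for Fth1, 6.10 for Upf2, 6.43 for mt-Co1, 4.70 for Ankhd1 and 4.50 for Igf2, and all 5 passed (edgeR adjusted p from 0.0105 to 0.0406). With the mouse block none of the 5 passed (edgeR adjusted p from 0.0715 to 0.166).

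**Figure D3:**
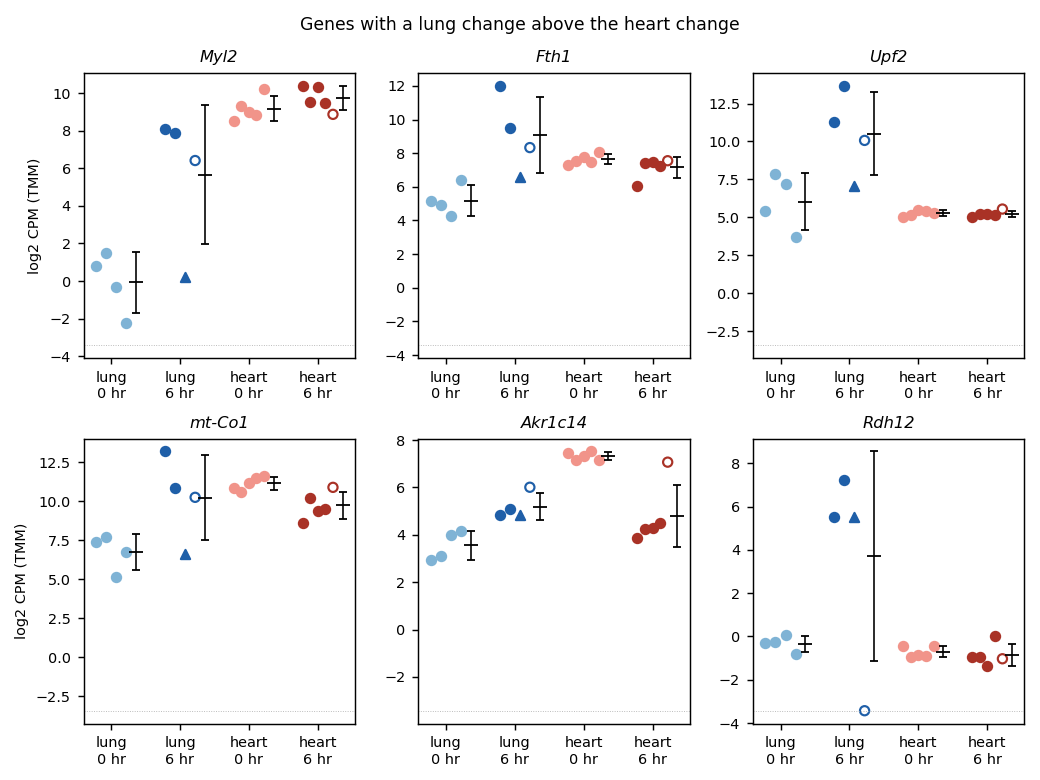
Level in log2 CPM (vertical axes, each panel on its own scale) of Myl2, Fth1, Upf2, mt-Co1, Akr1c14 and Rdh12 in each library of the 4 groups, with the mean and SD beside the points and the symbols as in the plot of genes with a lung change below the heart change. For Myl2, Fth1, Upf2 and mt-Co1 the triangle, lung 6 hr replicate 3, lies lowest among the lung libraries at 6 hr, at 0.24, 6.60, 7.07 and 6.60.

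In Akr1c14 and Rdh12, both named after their values had been seen, lung 6 hr replicate 3 lay beside other lung libraries at 6 hr. Akr1c14, which encodes a hydroxysteroid dehydrogenase, was at a log2 CPM of 2.94, 3.11, 4.00 and 4.17 in lung at 0 hr and 4.84, 5.10, 4.82 and 6.01 at 6 hr. In heart it was at 7.45, 7.17, 7.35, 7.52 and 7.18 at 0 hr and 3.86, 4.24, 4.28, 4.52 and 7.07 at 6 hr. Lung replicates 1 to 3 at 6 hr lay above 0 hr and all heart libraries at 6 hr below it, the library labelled heart replicate 5 by the least. Lung replicate 4 stood at its floor of 6.01, which lies above every lung level at 0 hr, so that it cannot show a rise. The lung change of 1.70 did not pass, the heart gene fell by 2.19, and the difference was 3.89 ± 0.78 (edgeR adjusted p = 0.0220), or 4.37 with 16 libraries (edgeR adjusted p = 0.00157). It passed in 13 of the 18 fits without 1 library and not without lung 0 hr replicate 3. Rdh12, which encodes a retinol dehydrogenase, was at -0.32, -0.26, 0.06 and -0.82 in lung at 0 hr and at 5.53, 7.25 and 5.50 in replicates 1 to 3 at 6 hr, with no count in replicate 4. In heart it lay between -1.38 and 0.02 at either time, and the difference was 6.56 ± 0.92 (edgeR adjusted p = 0.00399), or 6.80 with 16 libraries (edgeR adjusted p = 0.00136).

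Fabp5 and Meox2 were the 2 called members of 21 genes known from heart endothelium, where 1.35% of all genes were called. Fabp5, which encodes a fatty acid binding protein, was at a log2 CPM of 8.83, 7.64, 8.32, 7.54 and 7.48 in heart at 0 hr and 2.54, 4.14, 3.92, 5.01 and 6.74 at 6 hr, all below 0 hr. In lung it was at 1.66, 1.91, 0.41 and 2.59 at 0 hr, and at 6 hr at 4.84 and 1.00 in replicates 1 and 3, with no count in the other lung libraries. The heart gene fell by 3.06 log2 units and the difference was 5.14 ± 1.17 (edgeR adjusted p = 0.0365), or 5.60 with 16 libraries (edgeR adjusted p = 0.0175). Meox2, which encodes a homeobox factor that controls fatty acid transport in heart ECs, differed by 4.56 ± 1.13 (edgeR adjusted p = 0.0452) between a lung change of 2.33 and a heart change of -2.23, and the heart change passed with 16 libraries (-3.32, edgeR adjusted p = 0.00215), as did the difference (5.32, edgeR adjusted p = 0.00787). Cxcl12, which encodes the chemokine that retains CXCR4-bearing cells, fell in heart by 2.75 and had a lung change of 1.34, and its difference of 4.09 ± 1.06 (edgeR adjusted p = 0.0514) passed with 16 libraries (4.44, edgeR adjusted p = 0.00812).

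With 16 libraries 5 genes fell in lung and rose in heart, namely Bmp4, Hilpda, Ndufc2, Fjx1 and Mir703, and 13 rose in lung and fell in heart. Of the 13, Tgfbi, which encodes a matrix protein induced by TGF-beta, had the highest level. The 4 genes that rose in both and more in lung were Gda, Ifit2, P2ry2 and Slfn3. The 19 that rose in both and more in heart held Icam1, Ccl2, Mt2, Csf3 and Nfkbiz, among others.

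Genes that rose in both tissues set the frame for these differences. With 18 libraries 108 genes rose in both, and with 16 libraries 369. Cxcl10 and Cxcl9 encode chemokines induced by interferon that call T cells. Cxcl10 was at a log2 CPM of -0.82, 0.45, 0.44 and 2.16 in lung at 0 hr and 10.20, 8.63 and 5.93 in replicates 1 to 3 at 6 hr, and in heart at 3.26, 3.26, 2.36, 3.74 and 3.86 at 0 hr and 12.01, 12.35, 11.68, 10.35 and 4.53 at 6 hr. It rose by 7.14 in lung and 7.65 in heart, and the 95% interval of the difference ran from -3.35 to 2.32. Cxcl9 rose by 6.54 and 4.90, with an interval of -0.56 to 3.84, and Gbp5, which encodes an interferon-induced GTPase, by 3.56 and 3.52, with an interval of -1.92 to 2.01. With 16 libraries the differences were -0.15 for Cxcl10, 1.68 for Cxcl9 and 0.30 for Gbp5, and none passed. Intervals this wide allow differences of several log2 units, so that likeness of the responses is not shown.

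Lcn2, Mt1 and Mt2 rose in both as well. Lcn2 rose by 4.48 in lung and 7.51 in heart, and the difference of -3.03 ± 1.15 did not pass (edgeR adjusted p = 0.140, and 0.0601 with 16 libraries). The metallothionein genes Mt1 and Mt2, whose proteins bind zinc, differed by -1.99 ± 1.11 and -3.14 ± 1.31 (edgeR adjusted p = 0.300 and 0.174), and that of Mt2 passed with 16 libraries (-2.99, edgeR adjusted p = 0.0355). Dbp, which encodes an output factor of the circadian clock, was the named gene that fell in both, by 3.63 in lung and 2.24 in heart, with an interval of the difference of -3.39 to 0.61. Aplnr, which encodes the apelin receptor, fell by 3.60 in lung and 2.91 in heart.

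Gene lists were described by counts and medians beside those of all genes, and members named below without a called difference with 18 libraries were picked after their values had been seen. Beside every list stand the shares of all genes, of which 2.67% rose in heart and 4.45% in lung with 18 libraries. With 16 libraries these shares were 7.63% and 5.47%. A difference of responses was called in 1.35% of all genes with 18 libraries and in 3.59% with 16. Of 32 interferon-stimulated genes, 24 rose in heart and 10 in lung with 18 libraries, and 32 and 25 with 16. Their median change was 1.87 in lung and 2.81 in heart, where the medians of all genes were -0.30 and -0.01. Isg15, which encodes a ubiquitin-like protein, rose in heart by 4.00 and had a lung change of 1.49, Irf7, which encodes the interferon regulatory factor that extends the response, rose by 3.93 in lung and 2.58 in heart, and Rsad2, which encodes viperin, by 5.44 and 3.22. None of the 32 had a called difference with 18 libraries, and 1 of them above and 2 below with 16, where Irf1, which encodes the first of these factors, differed by -3.38 (edgeR adjusted p = 0.0213). Of 15 guanylate-binding proteins and related GTPases, 9 rose in heart and 7 in lung, and 12 and 13 with 16 libraries, with no called difference in either.

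The genes of MHC class I presentation, which load peptides for CD8+ T cells, had the lowest median difference of the 30 lists. It was -2.18 with 18 libraries against -0.41 over all genes, -1.86 with RLE scaling and -1.95 with 16 libraries, and 18 of 19 genes lay below 0 in each of these fits. With 18 libraries 3 rose in heart and 0 in lung, and no difference was called. With 16 libraries 17 rose in heart and 1, Nlrc5, in lung, beside 7.63% and 5.47% of all genes, and 3 differences below were called. Psmb8, which encodes a subunit of the immunoproteasome, was at 9.09, 9.07, 8.72 and 7.78 in lung at 0 hr and 7.91, 8.39 and 9.62 in replicates 1 to 3 at 6 hr, and in heart at 7.94, 7.67, 7.64, 7.26 and 7.60 at 0 hr and 10.78, 10.53, 11.39, 9.95 and 7.87 at 6 hr. The lung ranges overlap, and the difference was -3.13 ± 0.95 (edgeR adjusted p = 0.0798), or -3.04 with 16 libraries (edgeR adjusted p = 0.0226).

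Of 24 immediate early factors, 9 rose in heart and 1, Fosl1, in lung, and the called differences, Cebpd and Ier3, lay below. With 16 libraries 15 rose in heart and 3 in lung, with 5 differences below. Ier3, which encodes a stress-induced regulator of cell survival, rose in heart by 2.99 with a lung change of -0.48 and differed by -3.47 ± 0.88 (edgeR adjusted p = 0.0478), or -3.36 with 16 libraries (edgeR adjusted p = 0.0194). Of all genes 2.67% rose in heart and 4.45% in lung. The list's median difference was -1.17, and -0.98 with RLE scaling. Of 15 NF-kappaB factors and inhibitors, 11 rose in heart and 5 in lung, and none had a called difference. Nfkbia, which encodes the inhibitor that NF-kappaB itself induces, rose by 2.86 in lung and 3.62 in heart.

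Of 12 CXC chemokines 8 rose in heart and 6 in lung, and of 14 CC and other chemokines 7 and 3, beside 2.67% and 4.45% of all genes. With 16 libraries the CC chemokines that rose numbered 11 in heart and 7 in lung, and 3 differences below were called, Ccl2, Ccl7 and Cx3cl1. Ccl2, which encodes the main ligand for monocytes, was at a log2 CPM of 2.49, 2.65, 2.19, 2.26 and 1.95 in heart at 0 hr and 11.63, 11.94, 11.47, 11.39 and 1.79 at 6 hr. In lung it was at 4.35, 1.64, -0.35 and 0.06 at 0 hr and 7.02, 6.53, 3.56 and 5.43 at 6 hr, and these ranges overlap. It rose in heart by 9.15 with 18 libraries and differed by -5.32 ± 1.54 (edgeR adjusted p = 0.0702), or -5.07 with 16 (edgeR adjusted p = 0.0276). Of 22 cytokines and receptors 13 rose in heart and 5 in lung, and of 16 acute phase and metal handling genes 14 and 12, again with no called difference with 18 libraries.

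Of 22 genes known from lung endothelium 9 fell in lung and 1, Aplnr, in heart, with a median change of -1.98 and -1.03, where 2.79% of all genes fell in lung and 0.308% in heart and the medians were -0.30 and -0.01. Ramp2, which encodes a partner of the adrenomedullin receptor, fell in lung by 3.92 and had a heart change of -0.63, and Tmem100, which encodes a membrane protein downstream of BMP9, fell in lung by 4.17 and had a heart change of -1.34. Hpgd had the 1 called difference, and none was called with 16 libraries, where 11 fell in lung and 4 in heart. Of 21 genes known from heart endothelium 2 fell in heart with 18 libraries and 10 with 16, where 5.64% of all genes fell, and 4 differences above and 1 below were called with 16. Of 21 BMP and TGF-beta genes 4 fell in lung and 2 rose in heart, with the differences of Bmp4 and Id3 called.

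**Figure D4:**
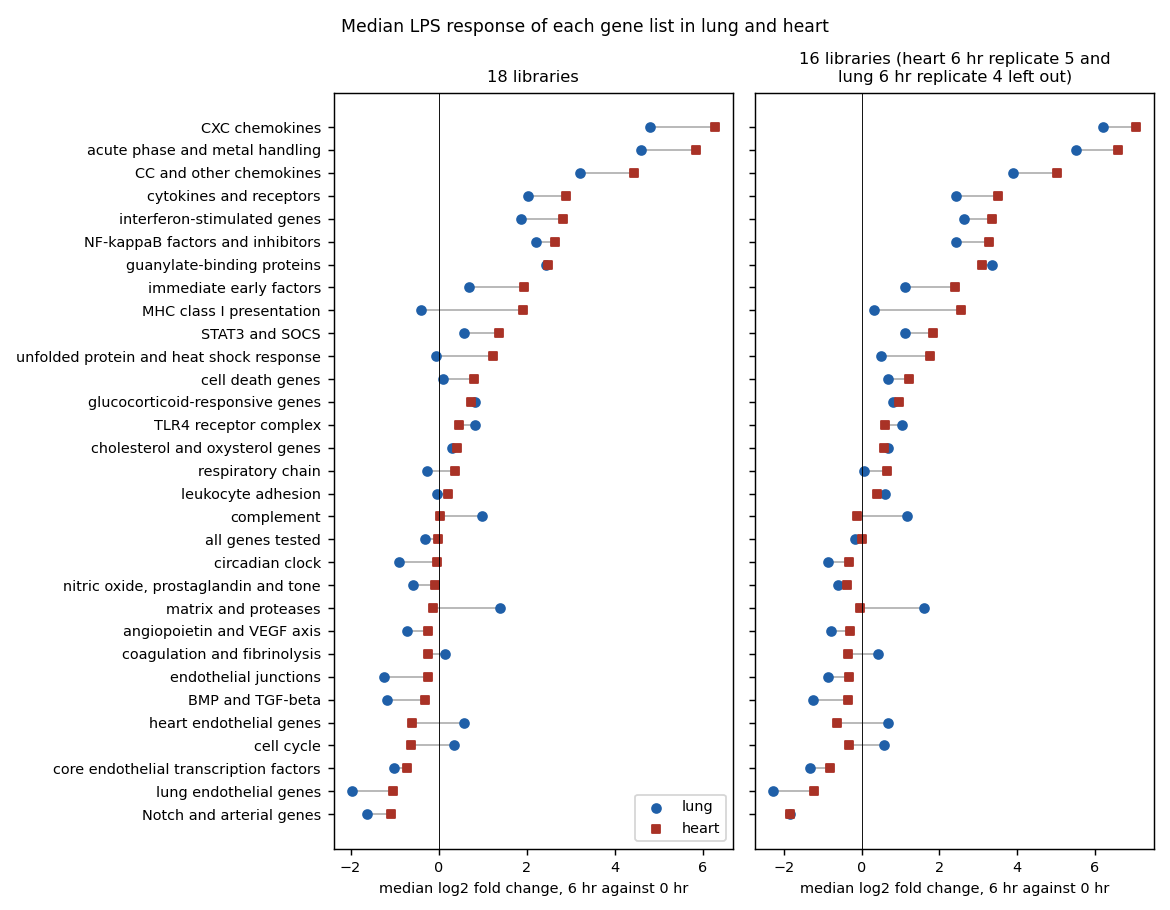
Median log2 fold change at 6 hr against 0 hr (horizontal axes) of the tested members of each of 30 gene lists and of all genes tested, in lung (circles) and heart (squares), with 18 libraries (left) and 16 libraries (right). The MHC class I presentation genes have the widest gap with lung below heart, at -0.40 against 1.92 with 18 libraries, and the matrix and protease genes lie higher in lung, at 1.39 against -0.14.

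In the remaining lists, 1 difference or none per list was called with 18 libraries, where 1.35% of all genes had one (0.844% above and 0.505% below). Lists of this size are too small for such counts to be told apart from the share of all genes. Among 17 Notch and arterial genes (Hey2), 21 genes of nitric oxide, prostaglandin and tone (Hpgd), 14 genes of the TLR4 receptor complex (Ly96), 10 STAT3 and SOCS genes (Socs1) and 26 respiratory chain genes (Ndufa5), 1 difference in each was called, below. None was called in the lists of coagulation (15 genes), the angiopoietin and VEGF axis (17), endothelial junctions (16), core endothelial transcription factors (19), glucocorticoid-responsive genes (19), the circadian clock (19), the cell cycle (22), cholesterol and oxysterol genes (23), matrix and proteases (26), the unfolded protein and heat shock response (20) and cell death (23).

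In lung, the 0 hr and 6 hr ranges of each summed marker set below overlapped. Without replicate 4, those of the neutrophil markers alone did not. The summed level of 14 neutrophil markers was 36.7 to 174 CPM in lung at 0 hr and 3600, 1740, 3210 and 21.5 CPM in replicates 1 to 4 at 6 hr, where 13 of them had no count in replicate 4. In heart it was 0.815 to 1.59 CPM at 0 hr and 35.7 to 52.9 CPM in replicates 1 to 4 at 6 hr, with 0.891 CPM in the library labelled replicate 5. The summed level of 15 macrophage and monocyte markers was 260 to 1190 CPM in lung at 0 hr and 5180, 741, 726 and 21.5 CPM at 6 hr. The 8 club and ciliated cell markers summed to 1470 to 3860 CPM in lung at 0 hr and to 13000, 6440, 2100 and 42.9 CPM at 6 hr. The lung ranges of alveolar type 2 markers (1820 to 9060 CPM at 0 hr and 494 to 14200 CPM at 6 hr) and of fibroblast markers (136 to 290 and 179 to 507 CPM) overlapped. The sum of 20 pan-endothelial markers was 12600 to 19900 CPM in lung at 0 hr and 2870, 7150, 16600 and 3000 CPM at 6 hr, and in heart 12800 to 14900 CPM at 0 hr, 5920 to 8050 CPM in replicates 1 to 4 at 6 hr and 14300 CPM in the library labelled replicate 5. No pan-endothelial marker had a called difference, where 1.35% of all genes had one. The part of other cells in the differences was not tested.

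The count of called differences varied widely between fits. It ran from 7, without lung 0 hr replicate 3, to 4739, without lung 6 hr replicate 3, when each library was left out in turn. Of the 219 genes 7 passed in all 18 of these fits, among them Bmp4, Hs3st1 and Rdh12, and 31 in at least 15. Vcam1, Pdgfa, Ndufa5 and Grrp1 passed in 3 of the 18, Ier3 in 2 and Meox2 in 4, while 200 of the 219 genes never had the opposite sign in any fit.

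**Figure D5:**
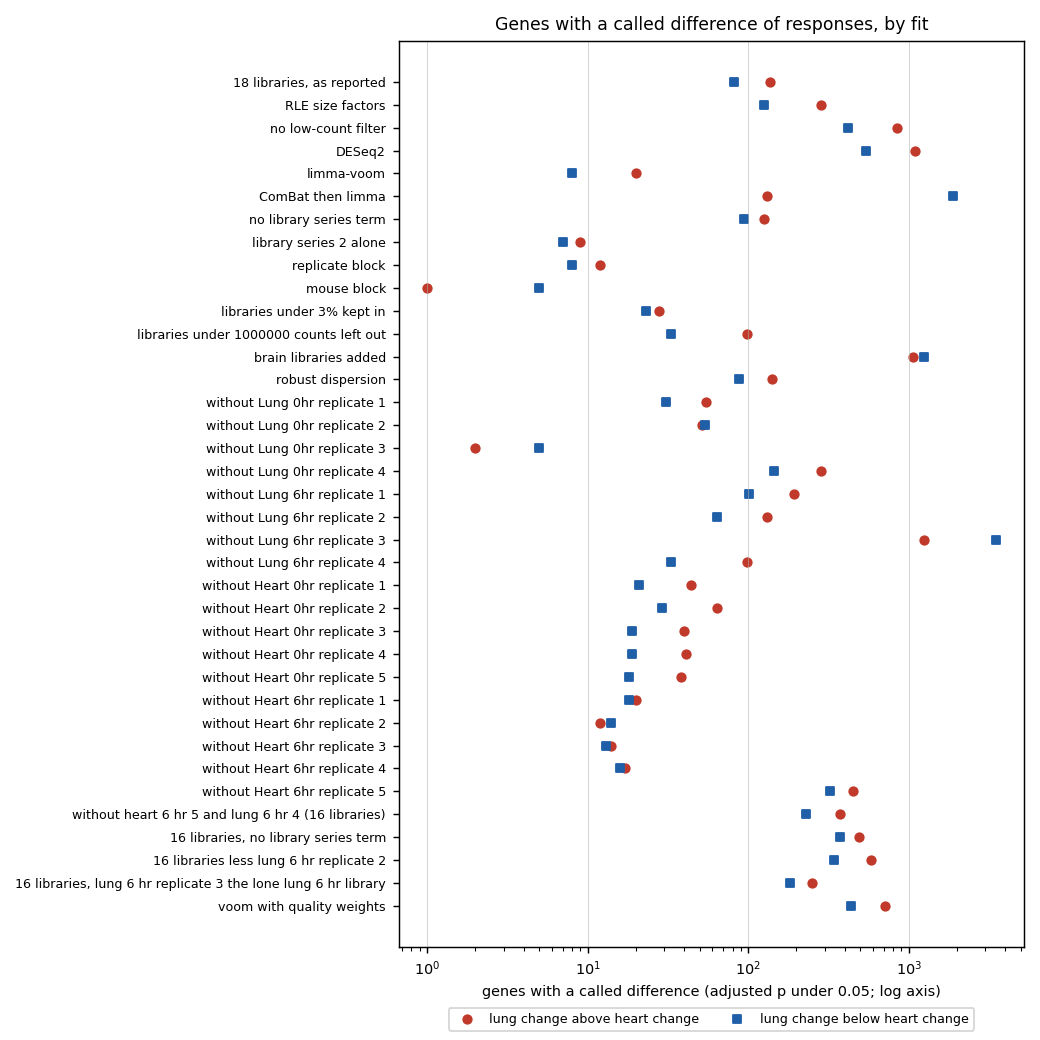
Number of genes with a called difference of responses (log axis) in the reported fit of 18 libraries and in each alternative, for a lung change above (circles) and below (squares) the heart change. The counts run from 1 and 5 with the mouse as a block to 1239 and 3500 without lung 6 hr replicate 3.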

How the data were processed

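RNA of tagged ribosomes from lung and heart was sequenced at 0 hr and 6 hr. The authors aligned reads to mm10 with STAR 2.4.2, counted them per gene with HTSeq 0.6.1 and deposited raw counts per sequencing run, without normalization. The strand setting and annotation release are not given in the sources used here, and 21 of 63 named genes overlap a gene on the opposite strand, with which they may share reads. Runs of a library were summed, and 4 of the 22 libraries, with under 3% of reads on genes, were left out. The other 18 were fitted with edgeR 4.0.16 in R 4.3.3 (filterByExpr, TMM, quasi-likelihood F test, two-sided, Benjamini-Hochberg over all genes, threshold 0.05), with the library series, read from patterns in file names, as covariate. Both series 1 and series 2 occur in lung and in heart at 0 hr. At 6 hr lung replicate 4 and heart replicate 5 are the only libraries of series 1, and the others are of series 2. At 6 hr series and the doubted labels therefore cannot be told apart, and with 16 libraries the series term rests on 0 hr alone. Errors are SE with 13 residual degrees of freedom, and levels used a prior count of 2. Floors cover counting error only.

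The genes and lists were chosen with earlier results of these data known. Named genes were the 8 largest differences of either sign at a mean log2 CPM of at least 5, the largest called differences of each list, genes with opposite calls and the largest rises or falls shared by both tissues, predicted genes left out. Genes outside this rule were named after their values had been seen. The fit of 16 libraries, its variants and voom with quality weights were added after seeing the data. Replicate numbers, checked by the correlation of same-numbered libraries (25 pairs, r from -0.15 to 0.23, 6 over 0.1), did not pair the samples, and no pair of replicates was within sampling noise. The edgeR fit of 18 libraries was also run on simulated data. Gene positions are those of GENCODE M21. Figures used matplotlib 3.10.9.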

Additional observations from a re-analysis of the deposited data

Results flagged for a closer look

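In 180 sets of 1 measure in 1 group, 29 (16.1%) had a library apart from the others by Dixon's ratio, where chance gives about 1 in 20 groups. In 14 of them it was the library labelled heart 6 hr replicate 5. Its log2 CPM was 3.05 for C1ra, 5.62 for Cebpd, 4.53 for Cxcl10, 6.25 for Cxcl9, 3.37 for Hilpda, 5.18 for Lcn2, 3.68 for Mt1, 2.07 for Mt2, 2.90 for Pdgfa, 3.49 for Shroom3 and 1.59 for Tmem252, each below the other heart libraries at 6 hr. It was above them for Dbp (6.80), for the summed pan-endothelial markers (14300 CPM) and for the club and ciliated cell markers (74.8 CPM). In lung at 6 hr, replicate 4 was apart with no count (-3.43) for Gbp5 and Vcam1, replicate 3 was above the others for Ly96 (1.37), for counts on genes (40128330) and for the share of reads on genes (33.9%), and replicate 1 for the macrophage and monocyte markers (5180 CPM). In lung at 0 hr replicate 4 was apart for C1ra (5.46), Ndufa5 (6.57), Socs1 (1.11) and the smooth muscle and pericyte markers (452 CPM). In heart the others were replicate 3 for Bmp4 (5.83), replicate 2 for Hilpda (4.49) and Mt2 (0.40) and replicate 5 for the smooth muscle and pericyte markers (429 CPM) at 0 hr, and replicate 1 for Fth1 (6.05) at 6 hr.

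Lung and heart responses differed by the edgeR test for 34 genes named here. The log2 difference was below 0 for Bmp4 (-5.66), C1ra (-3.89), Cebpd (-5.15), Fjx1 (-12.73), Grrp1 (-4.06), Hey2 (-8.06), Hilpda (-4.65), Hpgd (-4.32), Hs3st1 (-5.02), Id3 (-2.71), Ier3 (-3.47), Ly96 (-3.94), Mir703 (-8.07), Ndufa5 (-3.85), Ndufc2 (-2.97), Pdgfa (-4.10), Serpinb9 (-4.13), Shroom3 (-4.16), Socs1 (-6.69), Tmem252 (-5.52), Tox2 (-3.88) and Vcam1 (-3.31). Fjx1 and Hey2 had no count in any lung library at 6 hr, so that the size of their fitted differences depends on the prior count. It was above 0 for Akr1c14 (3.89), Ankhd1 (4.25), Fabp5 (5.14), Fth1 (5.40), Igf2 (5.20), Meox2 (4.56), Myl2 (6.48), Myl3 (6.14), Rdh12 (6.56), Ttn (5.81), Upf2 (5.34) and mt-Co1 (5.83).

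Of the libraries left out for their low share of reads on genes, heart 6 hr replicate 6 held 203 CPM of Lcn2, 69.8 CPM of Cxcl10 and 6.07 CPM of Saa3, where heart 0 hr replicate 6, also left out, held 0, 0 and 1.59 CPM.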

How the results depend on the processing

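The 219 called differences became 411 with RLE scaling (286 above and 125 below), 1261 with no low-count filter, 1635 with DESeq2 1.42.0 (1089 and 546), 28 with limma-voom (20 and 8), 2013 with ComBat before limma (131 and 1882), 16 in library series 2 alone, 51 with the libraries under 3% kept in (28 and 23), 132 without libraries under 1000000 counts, of which lung 6 hr replicate 4 is the only one (99 and 33), and 2324 with brain libraries added (1071 and 1253). With 16 libraries they were 603, without the series term 865, also without lung 6 hr replicate 2 926, with lung 6 hr replicate 3 as the lone lung library at 6 hr 432, and with voom quality weights 1151. The 1175 lung changes became 2530 with no filter, 2557 with DESeq2, 678 with limma-voom, 6526 with ComBat, 1914 without the series term, 560 in series 2 alone, 514 with the libraries under 3%, 3880 with brain, 2314 with 16 libraries and no series term, and 160 with quality weights. The 483 heart changes became 972 with no filter, 1525 with DESeq2, 818 without the series term, 1593 in series 2 alone, 320 with the libraries under 3%, 1659 with brain, 2231 with 16 libraries, and 2830, 3745 and 5714 in its 3 variants, and 8189 with quality weights. Leaving out each library gave 7 (without lung 0 hr replicate 3) to 4739 differences (without lung 6 hr replicate 3), 226 to 5617 lung changes (the same libraries) and 99 (without heart 0 hr replicate 5) to 2031 heart changes (without heart 6 hr replicate 5). Without heart 6 hr replicate 5 the differences were 775, and without heart 6 hr replicate 2 they were 26. The cause of these shifts was not tested.

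The replicate number as a block gave 20 differences (12 and 8) and 485 lung changes, and the mouse as a block 6 (1 and 5). Neither same-numbered libraries nor the 7 pairs of lung and heart libraries of 1 mouse by file name (r from 0.01 to 0.20, 2 over 0.1) met the criterion for pairing, and the labels give no mouse. If the file names do mark mice, the block is the fit that compares tissues within a mouse. Of 25 named genes with a called difference it kept Bmp4, Hilpda and Socs1. Over 25 named genes with a called difference, 129 of 325 gene-by-setting values and 224 of 450 values without 1 library no longer passed, and the sign turned over once, for Myl2 (-0.81). Depth limits lung at 6 hr most, since in replicate 4 a log2 CPM of 6.01 stands for 3 counts and lower levels for 1 or 2.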
